A study of Mus musculus with 3 samples.

Results

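The genes described here are 10 members of the NF-κB system in mouse macrophages: the subunit genes Rela, Relb, Rel, Nfkb1, and Nfkb2, the IκB genes Nfkbia, Nfkbib, Nfkbie, and Nfkbiz, and Tnfaip3. They were chosen by gene name. Every probe of the array design that was not a control and carried 1 of these names was used, which gave 15 probes on 16 spots, and the 10 genes were among 34821 gene names on the array. NF-κB is a family of transcription factors that act as dimers, and its subunits are RelA, RelB, c-Rel, p50 (from Nfkb1), and p52 (from Nfkb2). Cytoplasmic IκB proteins hold the dimers back until the IκB kinase marks these inhibitors for destruction, a step that follows signals from Toll-like receptors. Several inhibitors, among them IκBα (Nfkbia) and A20 (Tnfaip3), are known to be NF-κB targets themselves, which closes a negative feedback loop.

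BMDMs, bone marrow-derived macrophages of C57BL/6J mice cultured for 4 to 6 days with M-CSF at 10 units/ml, were stimulated for 20 h and profiled on 1 array per condition. The conditions were CpG, a DNA ligand of TLR9, IFN-γ + αIL-10R (IFN-g+IL-10RB in the labels), which joins interferon-γ with an antibody that blocks the IL-10 receptor, and Triple, which holds all of these agents. The study used these arrays to search for genes that the cotreatment adds to the response to its parts. None of the 3 arrays held unstimulated BMDMs, so that every fold given here is between stimulations, and with 1 array per condition no difference has a replicate check and no p-value is given.

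The value of a probe is its processed signal, the fluorescence intensity left after the scanner software had subtracted a fitted background. Signals are printed as deposited, and folds were taken after each array had been shifted on the log2 scale to a common 75th percentile, a shift of a few percent. The term well above background is the software's mark for a measurable signal, and between 44.4% and 46.0% of the spots of an array carried it. A gene is called higher if its brighter signal was well above background and more than 2-fold higher. Errors given with log2 folds are those of the software's error model for the spots compared, and the scatter of replicate spots gave a technical SD of 0.13 for a log2 fold between single spots. Neither covers the spread between cultures, and because RNA was taken from whole cultures, fewer expressing cells and less RNA per cell cannot be told apart.

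The stretches before the transcription starts of the members are shown first, since NF-κB dimers bind the κB motif and several members are known to be controlled through it. The κB consensus searched was the usual 10-base form, 3 G bases, a purine, any 2 bases, 2 pyrimidines, and 2 C bases, on both strands. RefSeq promoter windows on GRCm38.p6, which run from 250 bases before to 50 after a start, were available here for 7 of the 10 members. The 130 bases before the most upstream start in the table are printed 5′ to 3′ on the strand of the gene, with each match to the consensus on either strand in capitals.
Nfkbia, chr12:55492648-55492777, minus strand: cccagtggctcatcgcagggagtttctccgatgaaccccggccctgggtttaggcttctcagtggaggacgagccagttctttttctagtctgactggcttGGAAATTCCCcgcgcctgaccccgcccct
Nfkbie, chr17:45555570-45555699, plus strand: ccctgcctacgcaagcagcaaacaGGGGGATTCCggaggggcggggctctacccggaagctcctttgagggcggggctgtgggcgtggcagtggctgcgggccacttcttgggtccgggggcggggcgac
Tnfaip3, chr10:19015411-19015540, minus strand: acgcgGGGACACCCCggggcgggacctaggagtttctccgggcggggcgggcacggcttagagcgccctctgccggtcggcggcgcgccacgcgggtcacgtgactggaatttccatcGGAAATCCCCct
Nfkb2, chr19:46304607-46304736, plus strand: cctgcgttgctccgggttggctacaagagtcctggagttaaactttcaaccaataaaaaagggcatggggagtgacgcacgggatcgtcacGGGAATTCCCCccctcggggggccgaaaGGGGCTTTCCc
Rel, chr11:23770970-23771099, minus strand: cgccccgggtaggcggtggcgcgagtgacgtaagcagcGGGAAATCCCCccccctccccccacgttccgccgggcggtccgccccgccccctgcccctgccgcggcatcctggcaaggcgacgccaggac
Nfkbib, chr7:28766645-28766774, minus strand: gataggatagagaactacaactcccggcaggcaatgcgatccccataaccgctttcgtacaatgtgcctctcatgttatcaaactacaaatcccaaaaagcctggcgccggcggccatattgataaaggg
Rela, chr19:5637411-5637540, plus strand: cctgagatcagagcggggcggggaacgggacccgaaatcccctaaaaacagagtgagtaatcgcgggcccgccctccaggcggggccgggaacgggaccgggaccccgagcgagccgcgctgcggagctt

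At least 1 window of 5 of these 7 genes held the consensus, whereas it was found in 8.46% of all 32851 windows and in 9.55% of the genes with a window. Nfkb2 and Tnfaip3 had 2 separate stretches in capitals, and Nfkbia, Nfkbie, and Rel had 1. A stretch longer than 10 bases, as in Nfkb2 and Rel, is made of matches that overlap. A narrower form, GGGA followed by any base and TTTCC, which lies within the consensus, was found in 0.411% of all windows. Among the members it was found for Nfkbia and Nfkb2. For Nfkbia it lay on the minus strand of the printed stretch from position −29 to −20 before the start. For Nfkb2 it lay only in the windows of its other starts, which are not printed. For Nfkbib and Rela neither form was found in the window. The matches are a description of the sequence, and binding of NF-κB was not measured.

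Compared with IFN-γ + αIL-10R, Triple had 7 of the 10 members past 2-fold higher and 0 lower, whereas of all 34813 genes measured 3.55% were called higher and 5.01% were called lower. The signals of 9 members were well above background on each array, and those of Rel were not on any. Among the 16509 genes of which the same held on each array (the detected genes below), 5.14% were called higher and 8.20% were called lower. The median log2 fold of the 9 measured members was 2.02, compared with −0.04 over the detected genes. The log2 folds of the members lay between 0.53 for Rela and 3.89 for Nfkbiz, so that each measured member had a higher signal in Triple.

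**Figure D1:**
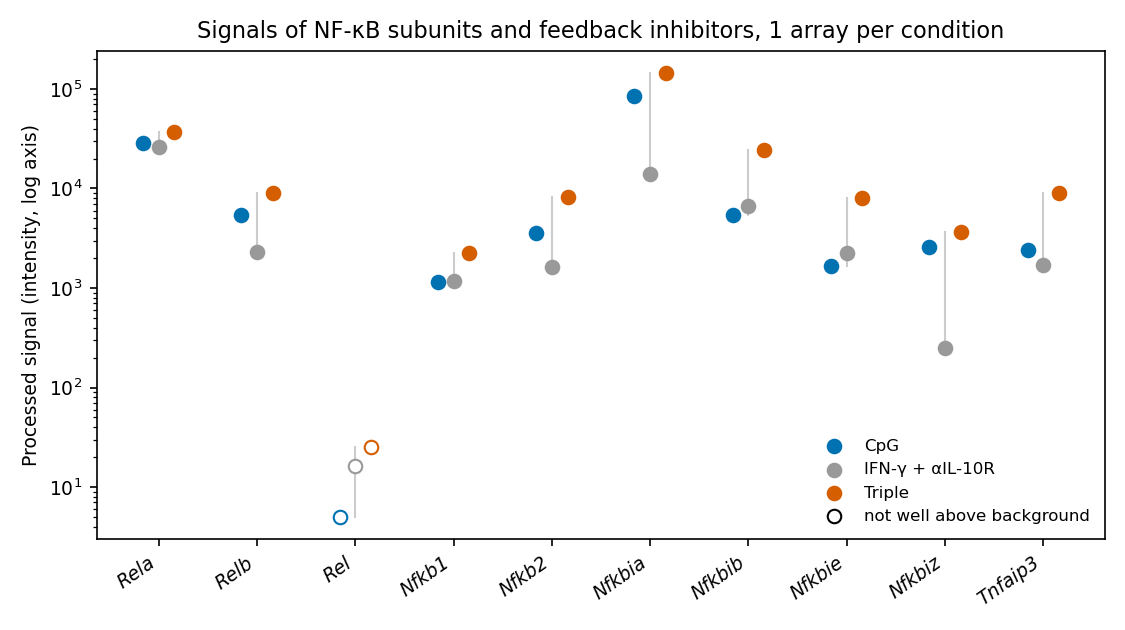
Processed signal (intensity, log axis) of the probe that represents each member on the arrays of CpG, IFN-γ + αIL-10R, and Triple. Filled points were well above background and open points were not, and the grey line joins the lowest and the highest signal; Triple was highest for each of the 9 measured members, and levels of different genes are not comparable because their probes differ.

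Rela, which encodes the RelA subunit of the classical p50-RelA dimer, was the measured member with the smallest folds in both comparisons with Triple. Its only probe (NM_009045, chr19:5648070-5648129 of mm9) had signals of 28484 in CpG, 25897 in IFN-γ + αIL-10R, and 36564 in Triple. The log2 fold was 0.53 ± 0.20 for Triple over IFN-γ + αIL-10R, 0.42 ± 0.20 for Triple over CpG, and 0.12 ± 0.20 for CpG over IFN-γ + αIL-10R. None of these reached 2-fold, and the last was within its error. The software marked the local background beside this spot as an outlier on the arrays of CpG and IFN-γ + αIL-10R, although that local value was not the background it subtracted.

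Nfkb1, which encodes p105 and its product p50, lay at the 2-fold threshold in Triple. Its brighter probe (NM_008689, chr3:135254550-135254609 of mm9) gave 1139 in CpG, 1175 in IFN-γ + αIL-10R, and 2265 in Triple. The signal in Triple was thus above a pair of nearly equal signals, 1.98-fold over IFN-γ + αIL-10R (log2 0.98 ± 0.20) and 2.07-fold over CpG (log2 1.05 ± 0.20). The call of Nfkb1 as higher than in CpG rested on this small excess, since the log2 fold lay within 1 technical SD of the threshold. The other Nfkb1 probe had 2 spots on each array, with 735 and 751 in CpG, 664 and 756 in IFN-γ + αIL-10R, and 1230 and 1217 in Triple. The spots in Triple did not overlap with the others, but the 2 spots of an array measure the same RNA and are no replicates of a condition. The log2 folds of this probe were 0.82 ± 0.14 and 0.78 ± 0.14, under 2-fold in both comparisons. These errors treat the 2 spots as independent.

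Relb and Nfkb2 encode the subunits of the RelB-p52 dimer of the alternative pathway, and both had their lowest signal in IFN-γ + αIL-10R and their highest in Triple. For Nfkb2 (NM_019408, chr19:46386146-46386285 of mm9) the signals were 3602 in CpG, 1637 in IFN-γ + αIL-10R, and 8163 in Triple. Triple was 5.11-fold over IFN-γ + αIL-10R (log2 2.35 ± 0.20) and 2.36-fold over CpG (log2 1.24 ± 0.20), and CpG was 2.17-fold over IFN-γ + αIL-10R (log2 1.12 ± 0.20). Nfkb2 was thus past 2-fold in each of the 3 comparisons, which share arrays in pairs. The smallest of these log2 folds, 1.12, lay near the threshold.

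The brightest Relb probe (NM_009046, chr7:20191722-20191781 of mm9) gave 5434 in CpG, 2289 in IFN-γ + αIL-10R, and 9078 in Triple, and a probe that overlaps it by position gave 3065, 1351, and 5534 in the same order. Triple exceeded IFN-γ + αIL-10R with log2 folds of 2.02 ± 0.20 and 2.07 ± 0.20 for these probes. Triple over CpG was under 2-fold for both, with log2 folds of 0.80 ± 0.20 and 0.91 ± 0.20. CpG over IFN-γ + αIL-10R was past 2-fold for both, with log2 folds of 1.23 ± 0.20 and 1.16 ± 0.20. The last Relb probe did not show this pattern. It lies at chr7:20203058-20203117 of mm9, was designed to the transcript ENSMUST00000148040, and was dim, with 167 in CpG, 151 in IFN-γ + αIL-10R, and 129 in Triple. Log2 folds of Triple for this probe were −0.19 ± 0.23 over IFN-γ + αIL-10R and −0.31 ± 0.22 over CpG.

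Rel, which encodes c-Rel, could not be compared. Its only probe gave 5.04 in CpG, 16.3 in IFN-γ + αIL-10R, and 25.4 in Triple, none of them well above background, and the lowest signals that were well above background on these arrays were 23.8, 26.7, and 26.3. The array's annotation places this probe on 15 bases of chromosome 11 (23641729 to 23641743 of mm9), compared with at least 60 bases for each of the other 14 probes. A signal this low on 1 probe does not show that the transcript was lacking.

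**Figure D2:**
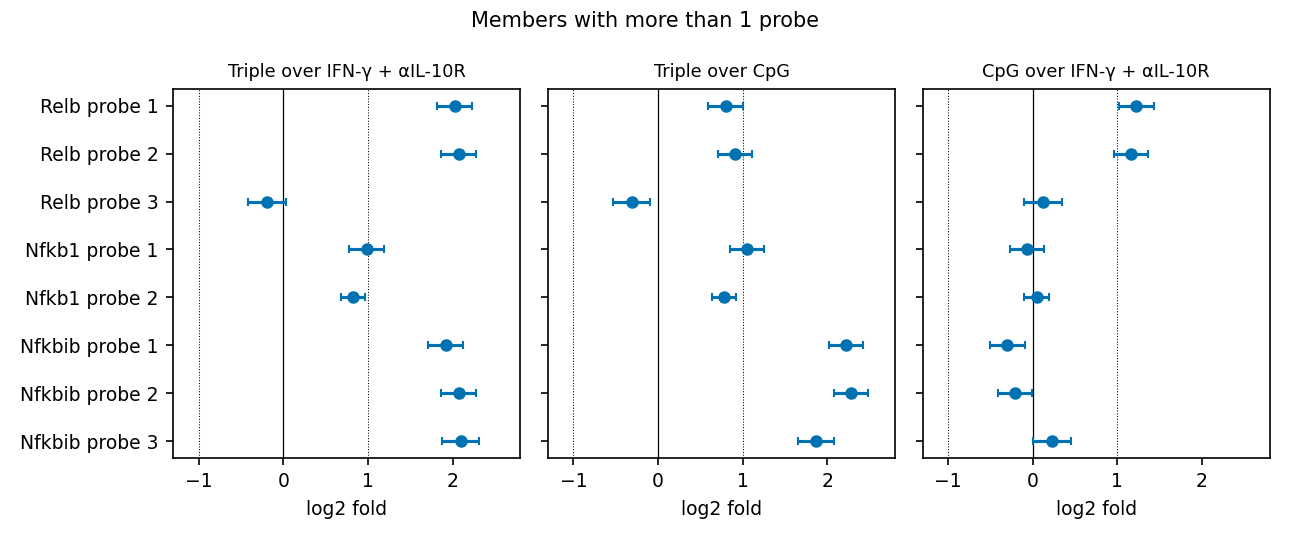
Log2 folds of each probe of Relb, Nfkb1, and Nfkbib in the 3 comparisons, with bars for ± 1 SD of the scanner software's error model and dotted lines at 2-fold. The probes of Nfkbib lie together above 2-fold in both comparisons with Triple, those of Nfkb1 lie on either side of the threshold over CpG, and the third Relb probe lies below 0 in both comparisons with Triple.

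The IκB genes and Tnfaip3 showed different patterns across the arrays. Nfkbia and Nfkbiz were high wherever CpG was present, Nfkbib and Nfkbie were high in Triple alone, and Tnfaip3 lay between these. In CpG 4 members, Relb, Nfkb2, Nfkbia, and Nfkbiz, were called higher than in IFN-γ + αIL-10R and 0 were called lower, compared with 2.74% and 3.19% of all genes measured and with 3.71% and 4.80% of the detected genes. The median log2 fold of the 9 measured members was 0.51 there (0.00 over the detected genes). In Triple 5 members, Nfkb1, Nfkb2, Nfkbib, Nfkbie, and Tnfaip3, were called higher than in CpG and 0 were called lower, compared with 4.12% and 4.58% of all genes and with 6.05% and 7.01% of the detected genes. The median log2 fold of the members was 1.05 there (−0.05 over the detected genes). These comparisons share the CpG array.

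**Figure D3:**
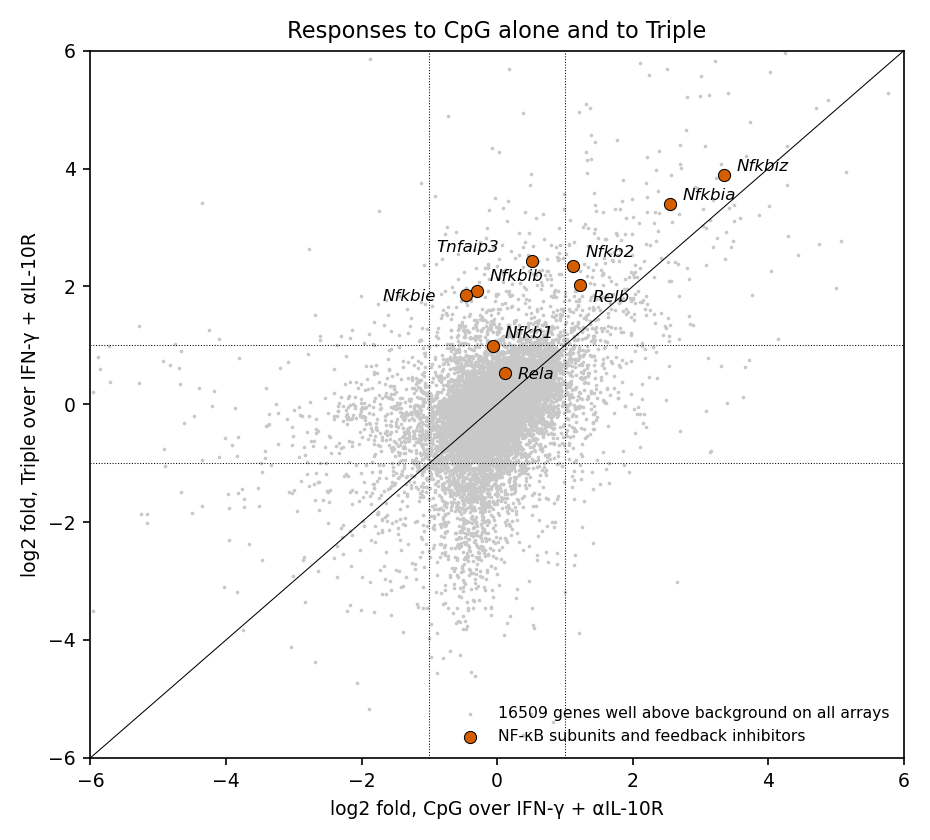
Log2 fold of CpG (x axis) and of Triple (y axis) over IFN-γ + αIL-10R for the 16509 detected genes (grey, 16 of them outside the axes) and the 9 measured members (orange); dotted lines mark 2-fold, and the solid line marks equal folds. Both axes share the array of IFN-γ + αIL-10R. All 9 members lie above the solid line, with Nfkbia and Nfkbiz at the upper right and Nfkbib and Nfkbie left of 0 on the x axis.

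Nfkbia encodes IκBα, the inhibitor that is degraded and then resynthesized within the feedback loop. Its probe (NM_010907, chr12:56590945-56591440 of mm9) had 84107 in CpG, 14117 in IFN-γ + αIL-10R, and 144855 in Triple. CpG was 5.87-fold over IFN-γ + αIL-10R (log2 2.55 ± 0.20) and Triple was 10.5-fold over it (log2 3.39 ± 0.20). The difference between Triple and CpG was smaller, 1.79-fold (log2 0.84 ± 0.20), and under the threshold. Of the detected genes, 99.6% had a lower log2 fold of Triple over IFN-γ + αIL-10R.

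Nfkbiz encodes IκBζ, a nuclear IκB protein that acts on a subset of NF-κB target genes and is needed for some of them to be transcribed. Its signals were 2603 in CpG, 252 in IFN-γ + αIL-10R, and 3631 in Triple (NM_030612, chr16:55817859-55817918 of mm9). Nfkbiz had the largest folds over IFN-γ + αIL-10R among the measured members, 10.2-fold in CpG (log2 3.35 ± 0.21) and 14.8-fold in Triple (log2 3.89 ± 0.21), while Triple over CpG was 1.45-fold (log2 0.54 ± 0.20). Like Nfkbia, its signals in CpG and in Triple were both far above that in IFN-γ + αIL-10R.

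Nfkbib and Nfkbie encode IκBβ and IκBε, which like IκBα hold dimers in the cytoplasm, and neither was past 2-fold with CpG alone. The brightest Nfkbib probe (NM_010908, chr7:29544160-29544219 of mm9) had 5439 in CpG, 6598 in IFN-γ + αIL-10R, and 24306 in Triple. The others had 1958 and 166 in CpG, 2231 and 140 in IFN-γ + αIL-10R, and 9141 and 582 in Triple. The signal in Triple was highest for each of the 3 Nfkbib probes, with log2 folds from 1.92 to 2.09 over IFN-γ + αIL-10R and from 1.87 to 2.28 over CpG, each with an error of at most 0.22. CpG over IFN-γ + αIL-10R was small in size for each probe and differed in sign among them, from −0.30 to 0.22.

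For Nfkbie (NM_008690, chr17:45700000-45700059 of mm9) the signals were 1671 in CpG, 2268 in IFN-γ + αIL-10R, and 8039 in Triple. Triple was 3.63-fold over IFN-γ + αIL-10R (log2 1.86 ± 0.20) and 5.01-fold over CpG (log2 2.32 ± 0.20), the highest log2 fold over CpG among the measured members. The signal in CpG was 1.38-fold lower than in IFN-γ + αIL-10R (log2 −0.46 ± 0.20), and 15.4% of the detected genes had a lower fold in that comparison. The folds of Nfkbie in Triple were close to those of Nfkbib in both comparisons.

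Tnfaip3 encodes A20, a ubiquitin-editing enzyme that restrains signaling above the IκB kinase. Its signals were 2435 in CpG, 1684 in IFN-γ + αIL-10R, and 8910 in Triple (NM_009397, chr10:18720776-18720835 of mm9). Triple was 5.42-fold over IFN-γ + αIL-10R (log2 2.44 ± 0.20) and 3.81-fold over CpG (log2 1.93 ± 0.20). CpG was 1.42-fold over IFN-γ + αIL-10R (log2 0.51 ± 0.20), so that Tnfaip3 differed from Nfkbia and Nfkbiz in that its signal with CpG alone stayed under 2-fold.

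The pathway around the members was read from a list of 34 other genes on the array, all of them well above background on each array. Of these, 10 were higher in Triple than in IFN-γ + αIL-10R (5.14% of the detected genes were) and 0 were lower (8.20% were). Their median log2 fold was 0.31. In CpG 7 were higher than in IFN-γ + αIL-10R (median log2 fold 0.11), where 3.71% of the detected genes were. In Triple 3 were higher than in CpG (median log2 fold 0.26), a share near the 6.05% of the detected genes. In either comparison 0 were lower. The median of the members was above that of this list in each comparison, a description that was not tested.

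Of the 11 genes for the IκB kinases and the kinases and adaptors above them, 3 were higher in Triple than in IFN-γ + αIL-10R. These were Ikbke, which encodes the kinase IKKε (log2 fold 2.41), Map3k8, which encodes the kinase Tpl2 bound by p105 (1.39), and Ikbkg, which encodes the regulatory subunit NEMO (1.08). Ikbkg lay under the threshold with spike-in scaling (0.93) and relative to Actb (0.99). Chuk and Ikbkb, which encode the catalytic subunits IKKα and IKKβ, had log2 folds of −0.35 and 0.27. Map3k14, which encodes the kinase NIK that drives processing of p100 to p52, had −0.30. Ikbke and Map3k8 were also higher in CpG than in IFN-γ + αIL-10R, with log2 folds of 1.59 and 1.11. None of the 11 genes passed 2-fold between Triple and CpG.

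Of the 13 genes for ubiquitin ligases, adaptors, and deubiquitinases, Birc3 and Traf2, whose products join in receptor complexes, were higher in Triple than in IFN-γ + αIL-10R, with log2 folds of 2.81 and 1.42. Both were also past 2-fold over CpG, with 1.22 and 1.16, although another Birc3 probe gave 0.87 there. Birc3 was also higher in CpG than in IFN-γ + αIL-10R, with 1.59, whereas Traf2 was not, with 0.26. The genes of the linear ubiquitin ligase, Rnf31, Rbck1, and Sharpin, had log2 folds of 0.08, −0.30, and −0.29 over IFN-γ + αIL-10R, and the deubiquitinase genes Cyld and Fam105b (the array's name for Otulin) had −0.36 and 0.09. Another Cyld probe gave 0.19 over IFN-γ + αIL-10R and 0.88 over CpG. None of these 5 genes passed the threshold in any of the 3 comparisons.

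The 8 partners of A20 and other feedback inhibitors held 4 genes that were higher in Triple than in IFN-γ + αIL-10R. Zc3h12a, which encodes the mRNA-degrading enzyme regnase-1, had a log2 fold of 2.93, and Tnip1 and Tnip3, which encode A20-binding proteins, had 2.12 and 2.04. These 3 genes were also higher in CpG, with 2.38, 1.89, and 1.43, and, like Nfkbia and Nfkbiz, they were under 2-fold between Triple and CpG. N4bp1 was higher in Triple than in both other conditions, with log2 folds of 1.14 over IFN-γ + αIL-10R and 1.44 over CpG, the former under the threshold with spike-in scaling (0.99) and after normexp background correction (0.92). Of the other IκB genes, Bcl3, which encodes a nuclear IκB protein that binds p50 and p52, had 33392 in CpG, 7776 in IFN-γ + αIL-10R, and 28701 in Triple. It was the only gene past 2-fold on the pathway list with a higher signal in CpG than in Triple, by a log2 difference under 2 technical SD (Triple over CpG −0.16). Nfkbid, which encodes IκBNS, had 0.18 over IFN-γ + αIL-10R.

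**Figure D4:**
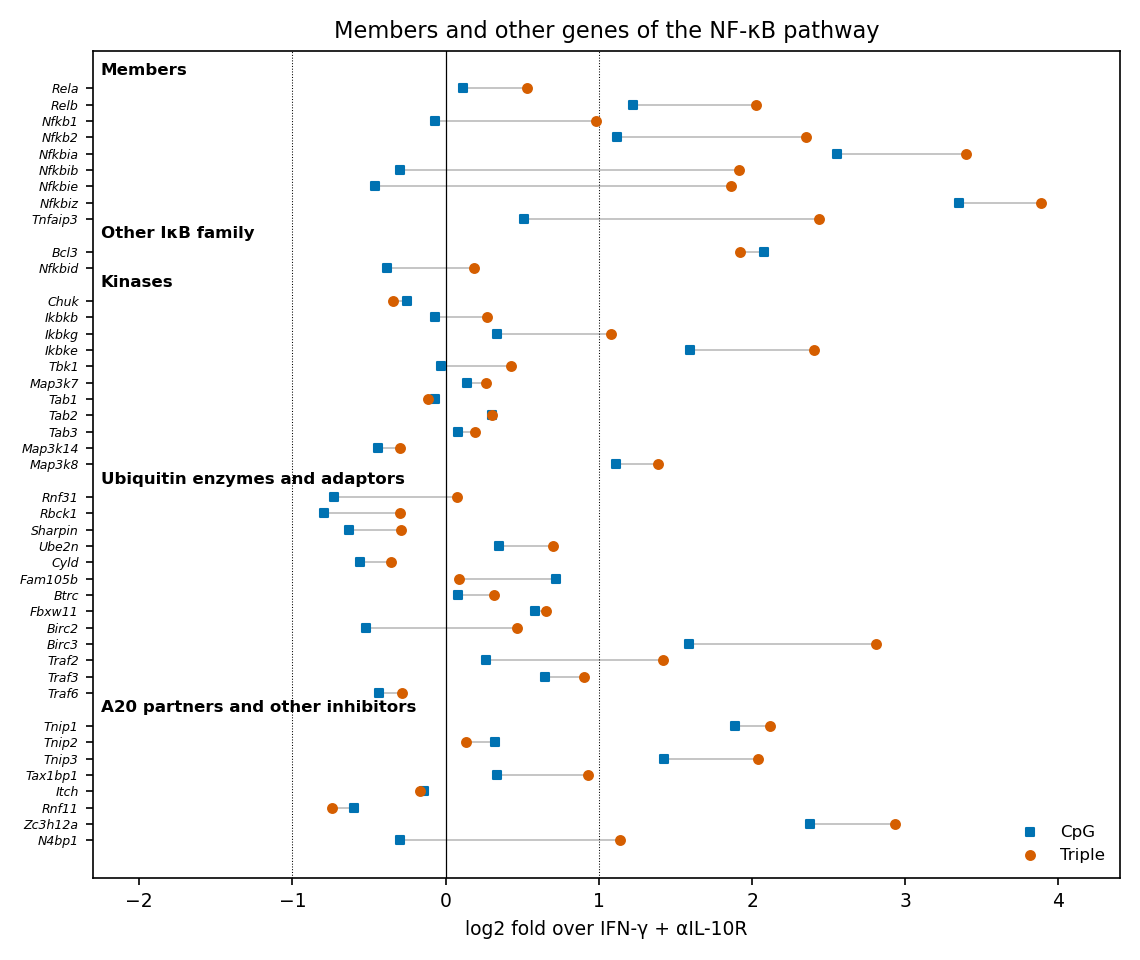
Log2 fold over IFN-γ + αIL-10R in CpG (blue squares) and Triple (orange circles) for the 9 measured members and the 34 other pathway genes, grouped by role, with dotted lines at 2-fold. In Triple 7 of the 9 members and 4 of the 8 A20 partners and other inhibitors lie past 2-fold, compared with 3 of the 11 genes labelled kinases and 2 of the 13 ubiquitin enzymes and adaptors.

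For comparison, a list of 21 inducible genes taken as NF-κB targets was read, which was chosen with earlier results of these data known. Of these, 20 were well above background on at least 1 array, and Il23a was not. Of the 21, 18 were higher in Triple than in IFN-γ + αIL-10R, compared with 3.55% of all genes measured. In Triple 17 were higher than in CpG, compared with 4.12% of all genes, but dim signals bear on both counts. Il1a and Csf3 were well above background in Triple alone, and Il1b, Il6, Il12b, Cxcl1, and Cxcl2 were not in IFN-γ + αIL-10R, so that their folds over it are lower bounds. With both arrays required to be well above background, 11 were higher in Triple than in IFN-γ + αIL-10R. The same count was 875 of all 34813 genes, many of them dim, and of the detected genes 5.14% were called higher. Tnf, which encodes the cytokine TNF, had 15636 in CpG, 7771 in IFN-γ + αIL-10R, and 90432 in Triple, and its folds in Triple (log2 3.58 and 2.59) were past those of Tnfaip3. In CpG 9 of the targets were higher than in IFN-γ + αIL-10R, compared with 2.74% of all genes. With both arrays required to be well above background, 5 were higher there, compared with 645 of all 34813 genes and with 3.71% of the detected genes. Ptgs2, Nos2, and Cd40 were lower in CpG than in IFN-γ + αIL-10R, with log2 folds of −1.87, −1.56, and −1.74. Of all genes measured, 3.19% were called lower there. None of the 8 reference genes passed 2-fold in any comparison, and their median log2 folds were −0.03, −0.09, and 0.00 for Triple over IFN-γ + αIL-10R, Triple over CpG, and CpG over IFN-γ + αIL-10R.

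The genes whose pair of folds over IFN-γ + αIL-10R lay closest to that of a member were ranked by distance among 11936 genes with a symbol. The gene nearest to Nfkbie was Ripk2, which encodes a kinase of NOD receptor signaling, at a distance of 0.02 on the log2 scale, and that nearest to Nfkbib was Gpr132 at 0.07. For Nfkbiz they were Pilra at 0.13 and Cd14, which encodes a coreceptor of Toll-like receptors, at 0.19, and only 2 genes lay within 2 technical SD of it. For Nfkb1, whose folds were smaller, 71 genes lay that close. A likeness over 3 arrays describes these arrays only.

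The labels describe the cells as BMDMs, and the 8 macrophage markers on the array, among them Csf1r, Emr1, Cd68, and Lyz2, were well above background on each array. Their summed signal was 736238 in CpG, 617476 in IFN-γ + αIL-10R, and 577380 in Triple, although single markers went opposite ways. Of the markers of other cells, those of NK and erythroid cells were not well above background, and 1 of 3 T cell markers (Cd3e, 806 to 869), 1 of 3 B cell markers (Cd79a, 43.6 to 75.5), and 2 of 3 fibroblast markers were. Markers on these lists also differed between the conditions. Among the macrophage markers, Cd14 was 16.8-fold higher and Cd68 2.24-fold lower in Triple than in IFN-γ + αIL-10R, and Mertk was 4.05-fold higher and Lyz2 2.19-fold lower in Triple than in CpG. In CpG, Itgam, Cd14, and Lyz2 were past 2-fold higher and Fcgr1 and Mertk past 2-fold lower than in IFN-γ + αIL-10R. The neutrophil marker Ly6g had 555 in CpG, 7699 in IFN-γ + αIL-10R, and 2658 in Triple, while Mpo and Ltf were not well above background and Elane had 2839, 1615, and 1539. The dendritic cell marker Zbtb46 had 132.9 in Triple and 36.3 in IFN-γ + αIL-10R and was not well above background in CpG, while Flt3 was not well above background on any array. The part of such differences in the values of the members was not tested.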

How the data were processed

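RNA of BMDMs was labeled with Cy3 and hybridized to Agilent 8 × 60K mouse arrays, all 3 on 1 slide with 1 scan time. The authors deposited scanner tables made with Agilent Feature Extraction 10.10.1.1 (per the file headers), from which the processed signal, a background-subtracted intensity on a linear scale, was used. A deposited log2 table was found to hold log2 processed signals shifted by 1 constant for each array (column medians −4.263, −4.377, and −4.27 for CpG, IFN-γ + αIL-10R, and Triple), which served as an alternative. The centring of that table is not given in the sources used here.

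Control spots and spots marked as feature outliers (0.212% to 0.275%) were left out, log2 values of replicate spots were averaged, and 34813 gene names were measured on all arrays. From each array its 75th percentile was subtracted, taken over the 22378 probes that were measurable on every array, because on average 45.1% of the probes, under 50%, were well above background. A gene was its probe with the highest mean. Dimmer signals were set to the array's lowest signal with that mark, and no fold is given where both signals were dim. No spot was saturated. A gene was called past 2-fold, the threshold of the study. The decision to keep spots with a mark on their local background only (2.78% to 3.59%) was made after the data had been seen, because the subtracted background was the fitted surface and Rela would otherwise not be measured.

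The members, gene lists, and markers were chosen with earlier results of these data known. All members were named, and list genes were named from those past 2-fold, with other members of the same complexes or the same role added for their role after the values were seen. Nearest genes were ranked by Euclidean distance over the log2 folds of Triple and CpG. Probe positions are those of the array annotation on mm9. Promoters are from RefSeq (GRCm38.p6), and all 10 members were found in its gene table.

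Alternatives were normexp by limma 3.58.1 in R 4.3.3 with an offset of 50, scaling by quantiles, medians, spike-in probes, Actb, the percentile over all probes, or not at all, the deposited log2 table, filters on dim probes, the mean over probes, outlier spots kept, and thresholds of 1.5-fold and 3-fold. The code, tested on simulated data with the measured spot noise, recovered 200 of 200 changed genes for Triple over IFN-γ + αIL-10R with 0 false calls among 34813 genes. The planted changes were all well past the threshold, in genes well above background, and no spread between cultures was simulated. This run therefore checks the code and does not show how reliable calls from 1 array per condition are. Python 3.11.15 with numpy 2.4.6 and pandas 2.3.3 was used. The precision is limited by the number of arrays and, for dim probes, by the background.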

Additional observations from a re-analysis of the deposited data

How the results depend on the processing

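All 27 log2 folds of the measured members kept their sign under the 12 alternatives that applied to folds (11 for Rela), and 24 of 27 kept their side of 2-fold. Those that crossed it were Nfkb1 for Triple over IFN-γ + αIL-10R (lowest 0.83, highest 1.09), for Triple over CpG (lowest 0.91, highest 1.12), and Relb in CpG over IFN-γ + αIL-10R (0.84 as the mean over its probes, which includes the dim one). With a 3-fold threshold the members called higher were 3 for Triple over CpG and 2 for CpG over IFN-γ + αIL-10R. Of all 34813 genes, 733 and 439 were called higher there at this threshold. With no filter and no lower limit on dim signals, 1 member, Rel, was called lower for CpG over IFN-γ + αIL-10R, compared with 2563 of all 34813 genes. The other 87 member counts stayed within 1.5 times, among them the 7 members called higher for Triple over IFN-γ + αIL-10R at 3-fold. With spots that bear a local background mark also left out, an alternative added after seeing the data, Rela was not measured. The median log2 fold of the detected genes moved by over 0.1 for Triple over IFN-γ + αIL-10R with the 75th percentile over all probes (0.11), the deposited log2 table (0.11), and spike-in scaling (−0.15), and with spike-in scaling for Triple over CpG (−0.10). The number of all genes called higher in Triple than in IFN-γ + αIL-10R was 1237, compared with 2624 without the filter on dim signals, 2523 at 1.5-fold, and 645 at 3-fold, and that of CpG was 954, compared with 584 after normexp. Of the other pathway genes, 8 to 12 (10 as reported) were higher in Triple than in IFN-γ + αIL-10R under the alternatives at 2-fold, and Ikbkg and N4bp1 were those that lost a call. No paired analysis was possible because no condition had a second array. Rel, not well above background on any array, could not be compared at this signal.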
